A study of Mus musculus with 16 samples.

Results

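The tripartite motif (TRIM) family other than the 3 muscle ring finger (MuRF) genes was examined in the hearts of mice that lacked MuRF1, MuRF2 or both. Members were all genes on the array whose symbol, in the files or by accession in RefSeq, is Trim followed by a digit. Trim63, Trim55 and Trim54, which encode MuRF1, MuRF2 and MuRF3, were set aside. This gave 101 of 41174 probes, for 53 of 27670 genes or names. RNA was measured with 16 two-colour Agilent arrays, 1 heart per array and 4 per genotype, in strain-matched mice aged 12 weeks. The genotypes were wild type (MuRF1 +/+ MuRF2 +/+), double null (MuRF1 -/- MuRF2 -/-), MuRF1 null MuRF2 het (MuRF1 -/- MuRF2 +/-) and MuRF1 het MuRF2 null (MuRF1 +/- MuRF2 -/-). The labels name no treatment and no Cre or transgene, and they do not say which part of either gene was removed. Cy5 carried heart RNA, and Cy3 carried the same reference on every array, RNA pooled from whole C57BL/6 pups on postnatal day 1. Values are log2 ratios of heart to that reference, so a ratio is read within a probe and does not rank genes by abundance.

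Most TRIM proteins carry a RING finger, 1 or more B-boxes and a coiled coil, and act as ubiquitin ligases that mark other proteins. What follows the coiled coil sets the subfamily: a PRY-SPRY domain, NHL repeats, a PHD finger with a bromodomain, a COS box with a fibronectin domain, or others. Many members act in the interferon response to viruses, either as sensors and signalling ligases or as genes that interferon switches on, while others silence chromatin, guard protein quality or shape neurons. In striated muscle the family is best known for the MuRFs, which mark sarcomere proteins for the proteasome, and for Trim32, whose human counterpart is mutated in a limb-girdle muscular dystrophy.

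Promoters of 41 of the 53 members (23 of the 31 that could be tested) were found in the RefSeq table of GRCm38.p6, as windows of 300 bases with 250 before the start. The core of the interferon-stimulated response element (ISRE), searched as GAAA, 2 bases of any kind and GAAA again, stood on either strand in 8 of the 41 members (19.5%), against 3.99% of all 27025 genes in the table. The 8 were Trim2, Trim12a, Trim12c, Trim21, Trim26, Trim30a, Trim30d and Trim34a. The search took in the 50 bases after the start, and matches wholly before it were seen in Trim12c, Trim26, Trim30a and Trim30d. Trim12a, Trim12c, Trim21, Trim30a, Trim30d and Trim34a are all on chromosome 7. The Trim30a and Trim30d windows below are nearly alike, so the 8 do not count as independent promoters. Shown first are promoters with these letters, since interferon-responsive members are a known branch of the family, and then that of Trim47, 1 of the 2 members that rose in double null hearts. Each line gives the bases before the start, 5′ to 3′ on the gene's strand, with every ISRE match in capitals.
Trim30a, chr7:104465194-104465443, minus strand, 1 of its windows: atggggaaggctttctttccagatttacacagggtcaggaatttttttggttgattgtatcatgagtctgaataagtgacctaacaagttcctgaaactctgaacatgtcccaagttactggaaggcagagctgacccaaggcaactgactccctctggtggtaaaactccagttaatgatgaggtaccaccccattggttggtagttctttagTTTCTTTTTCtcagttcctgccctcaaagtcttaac
Trim30d, chr7:104507850-104508099, minus strand: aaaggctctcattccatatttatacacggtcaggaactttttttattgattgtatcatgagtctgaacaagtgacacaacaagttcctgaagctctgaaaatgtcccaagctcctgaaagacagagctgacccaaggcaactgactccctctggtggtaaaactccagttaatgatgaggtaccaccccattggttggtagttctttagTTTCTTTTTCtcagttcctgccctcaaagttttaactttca
Trim26, chr17:36836896-36837145, plus strand: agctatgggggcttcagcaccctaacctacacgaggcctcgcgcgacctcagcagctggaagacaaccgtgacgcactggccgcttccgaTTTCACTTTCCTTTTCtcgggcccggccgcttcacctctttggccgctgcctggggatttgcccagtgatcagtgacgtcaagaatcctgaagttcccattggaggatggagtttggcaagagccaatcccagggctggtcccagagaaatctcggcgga
Trim47, chr11:116110236-116110485, minus strand: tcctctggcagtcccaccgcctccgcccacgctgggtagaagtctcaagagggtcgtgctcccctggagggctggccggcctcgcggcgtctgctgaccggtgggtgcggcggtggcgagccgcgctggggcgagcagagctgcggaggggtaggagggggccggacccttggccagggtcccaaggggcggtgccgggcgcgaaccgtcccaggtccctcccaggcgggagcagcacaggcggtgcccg

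The match began 36 bases before the start in Trim30a and 41 bases before it in Trim30d, the capitals being those of the opposite strand. Trim26 held 2 overlapping matches, the nearer of which began 154 bases before the start. The Trim47 window held none of the 7 letter patterns searched on both strands. The other 6 were the STAT site TTCNNNGAA, the antioxidant response element TGACNNNGC, the muscle motif M-CAT with the letters CATTCC, the E2F site with the letters TTCCCGC, the CCAAT box and the CArG box. Their shares among the members and among all genes were 9.76% and 9.55% for TTCNNNGAA, 19.5% and 14% for TGACNNNGC, and 17.1% and 16.6% for CATTCC. For the last patterns they were 9.76% and 5.29% for TTCCCGC, 58.5% and 41.1% for CCAAT, and 0% and 1.81% for the CArG box. A match is a run of letters and not a shown binding site.

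Whether the members could be measured in the heart was asked first. For 31 of the 53 genes the heart signal passed the background limit on 4 or more of the 16 arrays, and these were among the 12348 genes tested. Trim16, Trim24, Trim25 and Trim47 were above background on all 16 arrays. The other 22 genes were not tested, 17 of them above background on no array and 5 (Trim7, Trim34a, Trim36, Trim59 and Trim62) on 1 to 3 arrays. All 4 PHD and bromodomain members were measured, as were all 5 with NHL or filamin repeats, 16 of 28 with a PRY-SPRY domain and 1 of 5 with a COS box (Trim46). Of the untested genes, 9 were above background in the pup reference on all 16 arrays, among them Trim9, Trim36 and Trim67 of the COS subfamily, whose members are known from neurons, and the ARF-domain member Trim23. A further 11 untested genes were above background in the reference on fewer than 4 arrays. Of the members known from antiviral defence, Trim14 and Trim12c were above background on no heart array and Trim34a on 1.

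**Figure D1:**
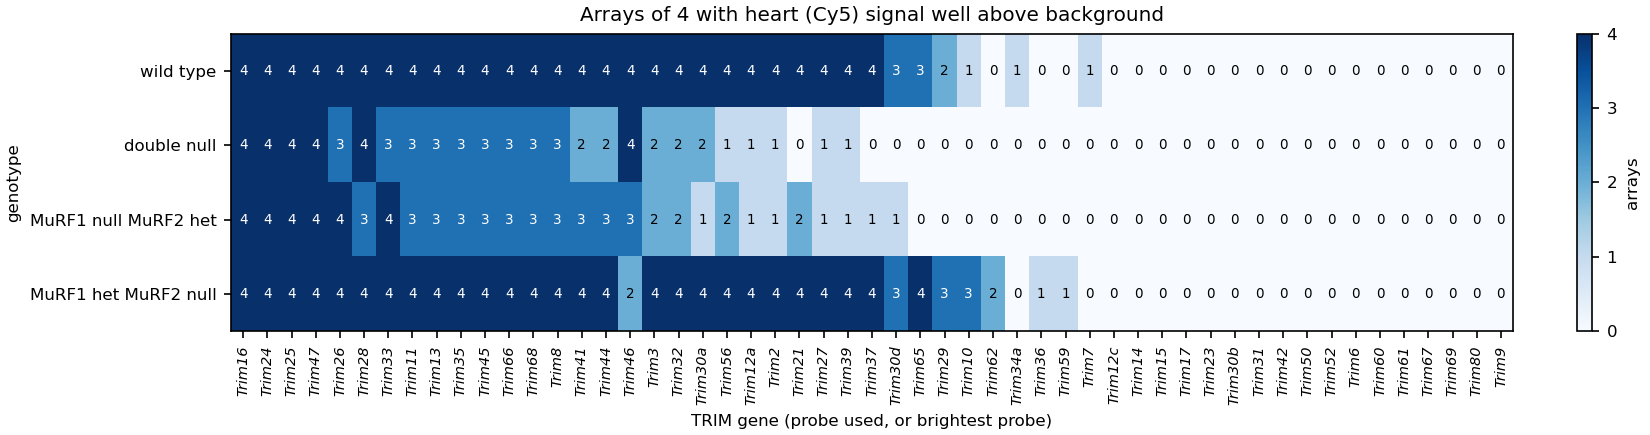
Number of arrays, out of 4 per genotype, on which heart RNA was well above background for each of the 53 TRIM genes (horizontal axis), by genotype (vertical axis). Counts are higher in the wild type and MuRF1 het MuRF2 null rows than in the other rows, and 17 genes read 0 in every genotype.

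The arrays differed in brightness, and this bears on every member. Heart RNA was well above background for 15183 to 16688 probes on wild type, 6056 to 14498 on double null, 6420 to 15076 on MuRF1 null MuRF2 het and 16139 to 17401 on MuRF1 het MuRF2 null arrays, against 22009 to 25196 for the reference. The measured TRIM genes above background numbered 27 to 30, 6 to 24, 7 to 26 and 29 to 31 per array in the same order. Double null 2 (6 members) and MuRF1 null MuRF2 het 1 (7 members) were the dimmest, and the SD of the members' ratios there was 0.272 and 0.243, against 0.409 to 0.575 on the other arrays. Per the headers, wild type and double null arrays shared slides 1 and 3, 2 of each per slide, with replicates 1 and 2 on slide 1 and replicates 3 and 4 on slide 3. Slide 2 held only MuRF1 null MuRF2 het and slide 4 only MuRF1 het MuRF2 null, so for these genotypes slide and genotype cannot be told apart. The targeted Trim63 was at 2.63 in wild type, 1.94 in MuRF1 het MuRF2 null, -0.72 in double null and -0.64 in MuRF1 null MuRF2 het hearts. The other targeted gene, Trim55, was at -1.73 ± 0.16 (SD, n = 4) in wild type, -1.28 ± 0.19 in MuRF1 het MuRF2 null, -1.35 ± 0.56 in double null and -1.03 ± 0.48 in MuRF1 null MuRF2 het hearts, above background on every array. It was thus not lower in either genotype labelled MuRF2 -/-, and it is unknown whether its probe lies in the removed part, so the MuRF2 genotypes rest on the labels. The arrays are labelled biological replicates, with no word on litters, so p-values measure the spread between these samples. The heart markers Myh6, Tnnt2, Tnni3, Actc1, Ryr2 and Myl2 were all measured, and none of 6 lymphocyte markers could be tested by the background limit used for the members.

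In wild type hearts the median ratio of the 31 members to the newborn pup reference was -0.17, and no test was made of it. The ratio was highest for Trim66, a testis-rich relative of the chromatin repressor Trim28, at 0.70 ± 0.09 (SD, n = 4). Next came Trim30a, an interferon-induced inhibitor of NF-kB, at 0.54 ± 0.24, Trim68 at 0.52 ± 0.16, Trim13, a ligase anchored in the endoplasmic reticulum, at 0.46 ± 0.07, and Trim45 at 0.41 ± 0.07. These 5 lay within about an SD of their neighbours in the order. The ratio was lowest for Trim2, a ligase known from axons, at -1.28 ± 0.11. Trim29, above background on 2 of 4 wild type arrays, was at -1.06 ± 0.16, Trim35 at -0.92 ± 0.25, the RIG-I ligase Trim25 at -0.73 ± 0.10 and Trim8 at -0.60 ± 0.07. For Trim25 and Trim8 the sign depended on the probe, as their dimmer second probes were at 0.21 and 0.29 in wild type. The second probe of Trim35 was at -0.22, that of Trim2 at -1.23 and that of Trim30a at 0.44. Adult heart RNA thus gave less signal than whole newborn RNA for the neuronal Trim2 and more for Trim66 and Trim30a. Heart RNA was in Cy5 and the reference in Cy3 on every array, so tissue and dye cannot be told apart in these ratios.

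Double null hearts were set against wild type to ask how the rest of the family differs once both MuRFs are lost. Trim16 and Trim47 rose, while Trim65, Trim11, Trim13 and Trim28 fell. Thus 6 of 31 members (19.4%) passed at an adjusted p under 0.05, against 22.3% of all 12348 genes tested, so the members' share was not above the background. Rises made up 2 of the 6, where 10.3% of all genes rose and 12% fell, and 14 members (45.2%) had an unadjusted p under 0.05, against 38.6% of all genes. The median difference was -0.09 over the 31 members and 0.01 over all genes, and 13 members lay above 0 and 18 below. With each array centred on its median instead of loess, which moved the median of all genes by -0.50, no member rose and 16 fell, where 0.146% of all genes rose and 55.7% fell. With Cy5 brightness as a covariate only Trim16 and Trim25 passed. With the authors' own log ratio Trim16, Trim47 and Trim65 passed again, and Trim25, Trim30d and Trim66 in place of the other 3.

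Trim16 is a family member without a RING finger, known from damaged lysosomes and the response to oxidative stress. Its ratio was -0.35, -0.27, -0.61 and -0.23 on wild type arrays 1 to 4. On double null arrays 1 to 4 it was 0.19, 0.37, 0.96 and 0.56. All 4 double null values lay above all 4 wild type values, with array 3 the highest of its group. The rise was 0.88 ± 0.14 (SE, 95% interval 0.58 to 1.19), or 1.84-fold (limma, adjusted p = 0.000802). It was 0.59 between the arrays of slide 1 and 1.18 between those of slide 3, and it passed when each array was left out in turn. With median centring the difference was 0.11 (adjusted p = 0.751), which is 0.61 above the median of all genes. On slide 1 alone no member passed, with 2 arrays a group.

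Trim47, a RING-type ligase, was higher on 3 of 4 double null arrays than on any wild type array. Its ratio was -0.11, -0.29, -0.05 and -0.26 in wild type, and -0.14, 0.45, 1.33 and 0.82 on double null arrays 1 to 4. Double null 1 lay within the wild type range and the other 3 above it. The rise was 0.79 ± 0.22, or 1.73-fold (limma, adjusted p = 0.0187), and the group means were -0.18 ± 0.12 and 0.62 ± 0.62 (SD, n = 4). It was 0.36 on slide 1 and 1.23 on slide 3, 0.76 without wild type 2 (adjusted p = 0.0515) and 0.73 without double null 4 (0.0519). With median centring the sign turned to -0.23, still 0.27 above the median of all genes.

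Trim65, which ubiquitinates the RNA sensor MDA5, was at 0.30, 0.40, 0.38 and 0.17 in wild type and at 0.07, -0.06, 0.09 and -0.17 in double null hearts. The groups did not overlap, but no double null array was above background and 3 of 4 wild type arrays were. It was at least 1.16-fold lower (fitted difference -0.33 ± 0.08, limma adjusted p = 0.0126), a bound set by the lowest signal above background on each dim array, and it passed when each array was left out in turn. In the positions given in the files, the probes of Trim47 and Trim65 lie 16.7 kb apart on chromosome 11, in a build that the files do not name. Trim47 rose and Trim65 fell, although with median centring, described above, Trim47 lay below 0 as well.

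The falls of the other 3 members were smaller. Trim11, which acts in protein quality control, was at 0.32, 0.46, 0.14 and 0.28 in wild type and -0.09, -0.21, 0.13 and 0.05 in double null hearts, a fall of 0.33 ± 0.10 (limma, adjusted p = 0.0296). Trim13 was at 0.54, 0.40, 0.51 and 0.40 in wild type and 0.16, 0.18, 0.39 and 0.14 in double null hearts, and fell by 0.25 ± 0.08 (limma, adjusted p = 0.0332). Trim28, or KAP1, the corepressor that KRAB zinc finger proteins recruit to silence chromatin, was at -0.40, -0.27, -0.44 and -0.40 in wild type and -0.83, -0.49, -0.56 and -0.62 in double null hearts, and fell by 0.25 ± 0.08 (limma, adjusted p = 0.0414). For all 3 the groups did not overlap, but the nearest arrays were close: wild type 3 and double null 3 for Trim11, and double null 3 and the wild type arrays for Trim13. By slide, the differences were -0.54 and -0.12 for Trim11, -0.30 and -0.19 for Trim13 and -0.33 and -0.17 for Trim28 on slides 1 and 3.

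These 3 calls depended on single arrays. Trim11 did not pass without wild type 1, 2 or 4 or double null 1 or 2, with differences of -0.27 to -0.34 and adjusted p of up to 0.0935. Trim13 did not pass without wild type 1, 3 or 4 or double null 1, 2 or 4 (-0.22 to -0.27, adjusted p up to 0.0845). Trim28 did not pass without any 1 wild type array or without double null 1 or 4 (-0.18 to -0.27, adjusted p up to 0.118). Without the 2 dimmest arrays, an alternative chosen after seeing the data, all 6 members passed, with Trim24, Trim25 and Trim56 as well. The count over all members was 3 without wild type 1, 2 or 4 or without double null 4, and 9 without double null 3.

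**Figure D2:**
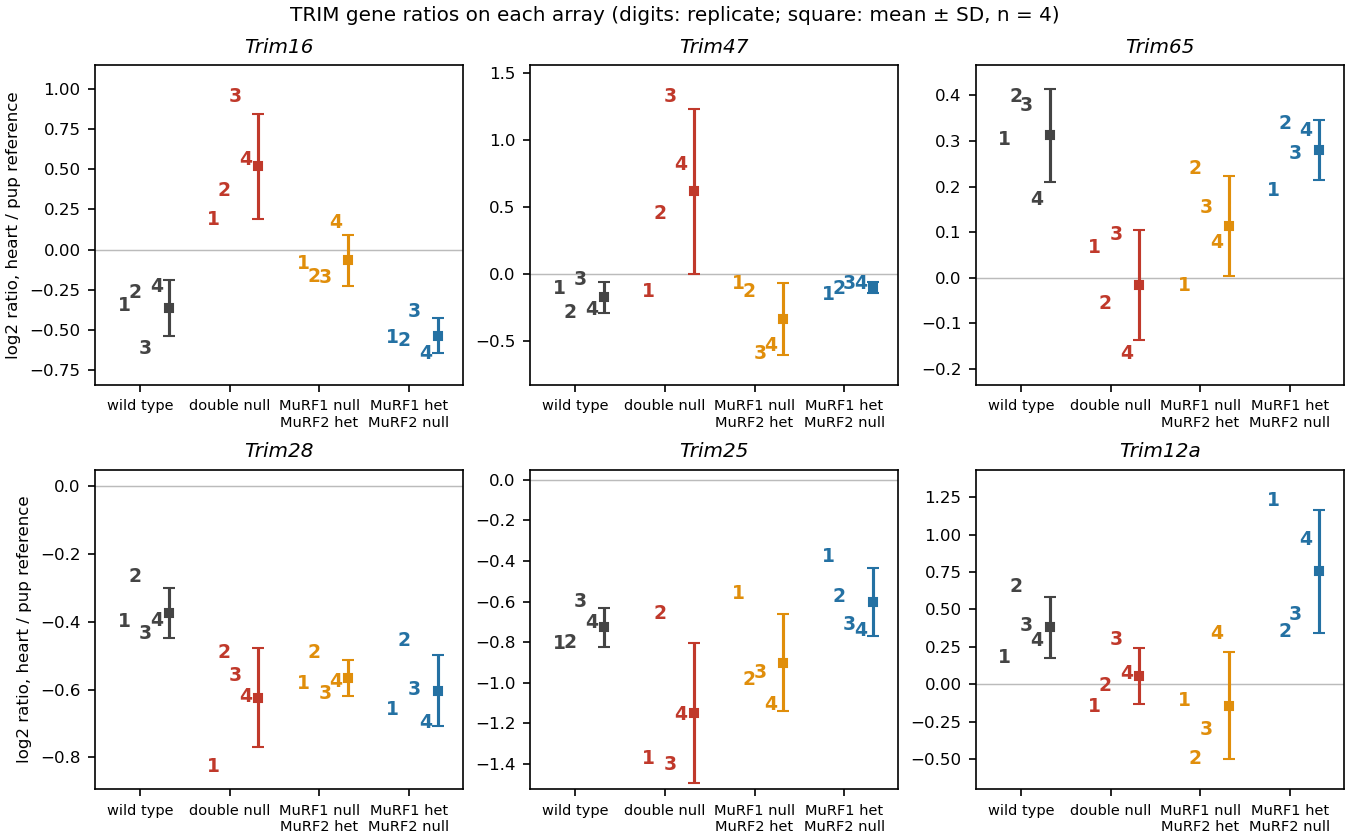
Log2 ratio of heart to pup reference (vertical axis) by genotype (horizontal axis) for Trim16, Trim47, Trim65, Trim28, Trim25 and Trim12a. Each digit is the replicate number of an array and each square with a bar is the mean ± SD of 4 arrays; the double null values of Trim16 lie from 0.19 to 0.96 and those of wild type from -0.61 to -0.23.

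Trim16 was seen by 3 probes that did not act alike. The brightest, used above, was above background on all 16 arrays. The next, above background on 14 arrays, differed by 0.34 between double null and wild type hearts, and the third, above background on 4 arrays, by -0.07. On the second probe double null 1 was at -0.11, within 0.01 of wild type 2 at -0.12, while double null 2, 3 and 4 were at 0.04, 0.48 and 0.28. Averaged over its probes, Trim16 differed by 0.38 (limma, adjusted p = 0.0203). For the 6 members called, 2 of 3 further probes had the same sign.

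**Figure D3:**
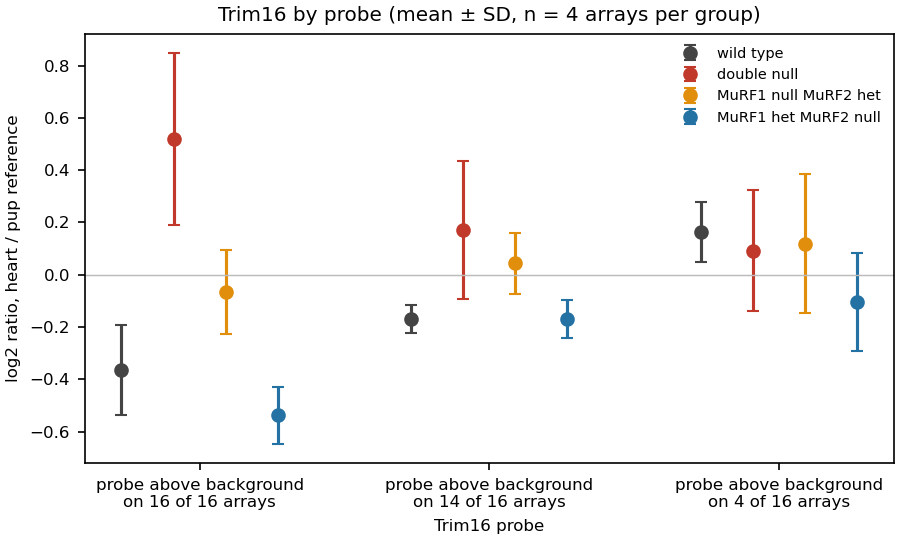
Mean ± SD over 4 arrays of the log2 heart to pup ratio (vertical axis) for each of the 3 Trim16 probes (horizontal axis), by genotype (colour). The probe above background on all 16 arrays rises from -0.36 in wild type to 0.52 in double null hearts, and the dimmest probe does not separate the genotypes.

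The other members were not called in this comparison. Trim30d, an interferon-induced relative of Trim30a, was at -0.35 (limma, adjusted p = 0.054), with no overlap between groups but no double null array above background. Trim25 was at -0.42 (0.0564), Trim2 at 0.47 (0.0737), Trim29 at 0.41 (0.0801), Trim66 at -0.33 (0.0841), Trim24, a coregulator of nuclear receptors, at -0.21 (0.0967) and Trim35 at 0.40 (0.147). Trim2, though higher in double null hearts, was above background on 1 double null array and on 4 wild type arrays. Trim29 was above it on no double null array and on 2 wild type arrays. The Trim30a, Trim12a, Trim56, Trim8 and Trim32 differences were -0.31, -0.32, -0.25, -0.15 and -0.10 (adjusted p from 0.126 to 0.403). Trim33, a ligase that acts on SMAD4, was at 0.10 (0.481), Trim21, a cytosolic antibody receptor, at -0.09 (0.593), Trim3 at 0.06 (0.583), Trim27 at -0.02 (0.871) and Trim44 at -0.01 (0.962). By subfamily, 1 of 4 PHD and bromodomain members fell, and 2 of 16 PRY-SPRY members rose and 2 fell, beside 10.3% of all genes that rose and 12% that fell. None of the 5 NHL or filamin members passed. With median centring 4 of the PHD, 6 of the PRY-SPRY and 3 of the NHL or filamin members fell and none rose. For 6 of the 31 members the groups did not overlap, against 25.5% of all genes.

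**Figure D4:**
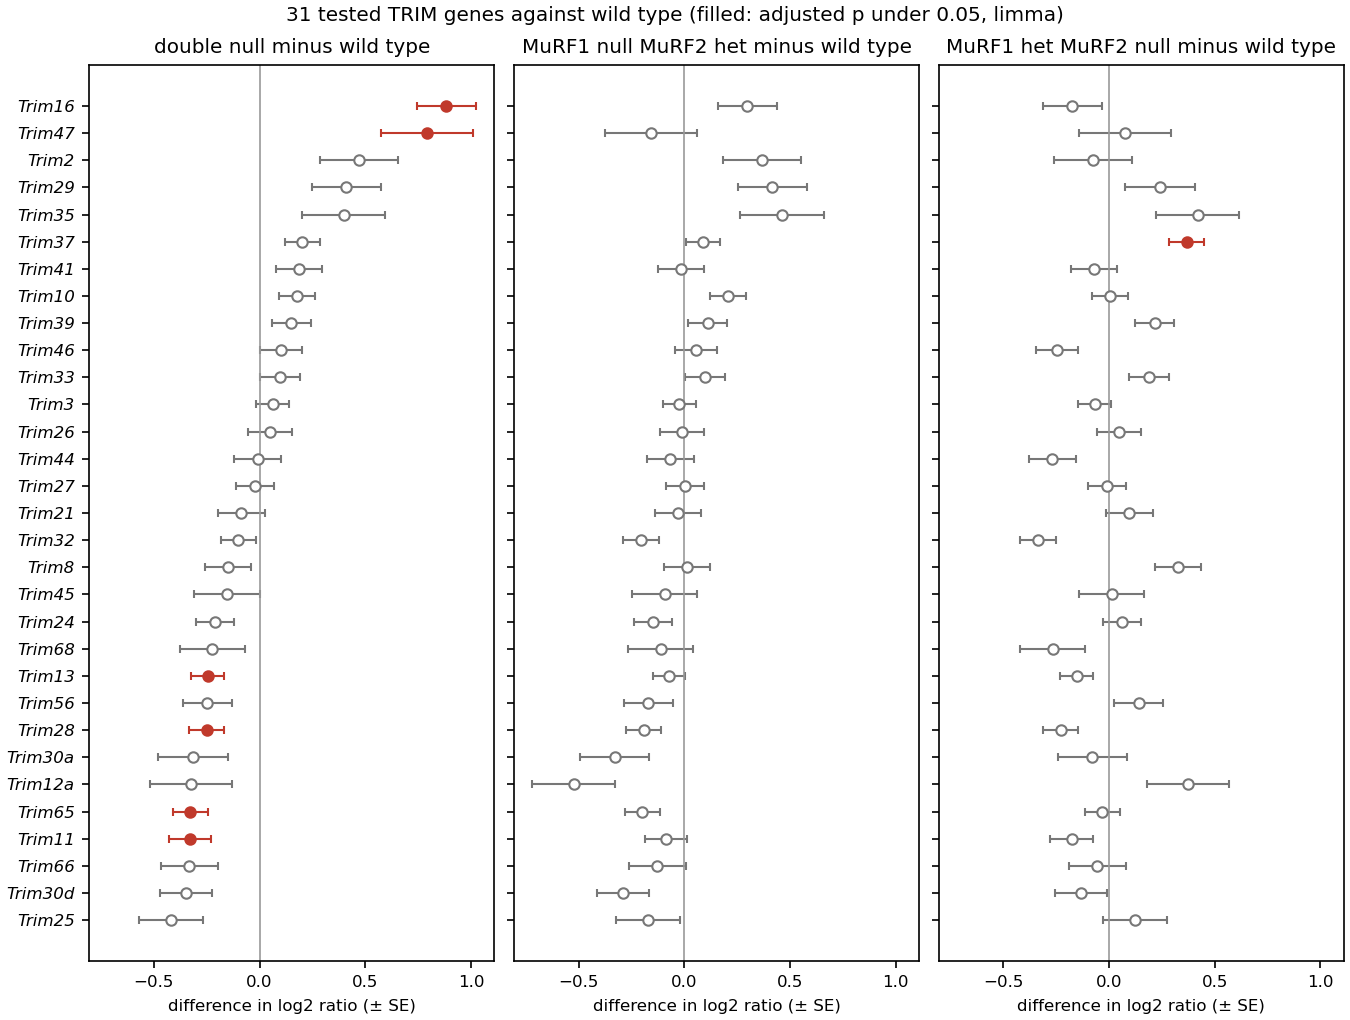
Difference in log2 ratio from wild type (horizontal axis, ± SE) for the 31 measured TRIM genes (vertical axis), with a panel each for double null, MuRF1 null MuRF2 het and then MuRF1 het MuRF2 null hearts. Filled points have an adjusted p under 0.05: 6, 0 and 1 in the same order.

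In bulk tissue fewer cells of a type and less RNA per cell cannot be told apart. All 5 endothelial markers fell in double null hearts (median -0.69), and their summed log2 level was 9.654 to 10.04 on double null against 10.6 to 10.8 on wild type arrays. Among 6 cardiomyocyte markers Myh6 and Ryr2 fell, with summed levels of 16.3 to 16.4 on double null and 16.7 to 16.8 on wild type arrays. The median difference of these markers was -0.06 and the highest 0.51, with none called higher. Of 5 fibroblast markers Lum rose, though it was under 0 with median centring, and of 5 macrophage markers none passed. Of 5 genes of the skeletal muscle list Myh4 and Ckm fell, by 1.90 and 0.89. The median difference of that list was 0.48 and its highest 1.03, with none called higher, so the list did not fall as a whole. Its summed level, in which the brightest genes weigh most, was 12.03 to 12.5 on double null against 13.4 to 13.8 on wild type arrays. The neutrophil marker S100a8 (1 of 2 measured) rose by 0.85, with summed levels of 8.71 to 10.6 and 8.23 to 8.61, and the smooth muscle marker Cnn1 (1 of 3) by 0.71, with summed levels of 10.7 to 11.9 and 10.96 to 11.3. With median centring S100a8 was at 0.06 and Cnn1 at -0.29. Of the markers that fell, Ryr2 was then at -0.20, Tie1 at -0.48 and Pecam1 at -0.53, where the median of all genes was -0.49. Myh6, Myh4, Ckm, Cdh5, Kdr and Emcn lay further down, at -1.54 to -3.71. The part of all these markers in the TRIM differences was not tested.

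The comparison of double null with MuRF1 het MuRF2 null hearts asks what the last MuRF1 allele changes where MuRF2 is absent. It uses the same double null arrays as the comparison above, so the values below are not independent of those. Trim16, Trim47, Trim2 and Trim46 were higher in double null hearts, and Trim8, Trim25, Trim12a, Trim56, Trim65 and Trim24 were lower. These 10 of 31 members (32.3%) stand beside 26.4% of all genes tested (13.8% higher, 12.7% lower). Groups did not overlap for 9 members of 31, against 28.9% of all genes. The median was -0.07 over the members and 0.02 over all genes. Trim2, Trim12a and Trim56 were above background on 1 of 4 double null arrays and on all 4 MuRF1 het MuRF2 null arrays, Trim8 on 3 and 4, and Trim46 on 4 and 2. Of 5 endothelial markers 4 were lower in double null hearts, with a summed level of 10.5 to 10.9 on MuRF1 het MuRF2 null arrays against 9.654 to 10.04. Myh6 and Ryr2 of the cardiomyocyte markers (2 of 6) and Myh4 and Ckm of the skeletal muscle list (2 of 5) were also lower. The median differences of these lists were -0.06 and 0.05 and the highest were 0.56 and 0.64, with none called higher. The macrophage marker Lyz2 (1 of 5) was higher by 0.71, though it was at -0.10 with median centring. Tie1 was then at -0.13 and Pecam1 at -0.17, where the median of all genes was -0.15. The other markers called lower were at -0.33 or below. The part of these markers in the TRIM differences was not tested.

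Trim16 was at -0.55, -0.57, -0.39 and -0.65 in MuRF1 het MuRF2 null hearts, below every double null array and close to wild type. The difference was 1.06 ± 0.14, or 2.08-fold (limma, adjusted p = 0.000197), and it passed without each array in turn. Trim47 was at -0.16, -0.11, -0.07 and -0.07 there, again with double null 1 (-0.14) inside the range of the other group, and differed by 0.72 ± 0.22 (limma, adjusted p = 0.0245). It did not pass without double null 3 (0.48, 0.053), double null 4 (0.65, 0.0649) or MuRF1 het MuRF2 null 1 or 2 (0.70 and 0.72, 0.0589 and 0.0549). Trim65 was at 0.19, 0.34, 0.27 and 0.32, above all double null values, and was at least 1.12-fold lower in double null hearts (limma, adjusted p = 0.0168; 0.055 without double null 4, at -0.25, and 0.0506 without MuRF1 het MuRF2 null 2, at -0.28). These 3 thus differed from double null in the same directions in the wild type and in the MuRF1 het MuRF2 null arrays. Both comparisons use the same double null arrays. Trim11, Trim13 and Trim28, also called against wild type, did not pass here. They were at -0.15 (limma, adjusted p = 0.27), -0.09 (0.386) and -0.02 (0.874).

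Trim8, Trim25 and Trim12a were higher in MuRF1 het MuRF2 null than in double null hearts. Trim8, which activates the kinase TAK1 upstream of NF-kB, was at -0.24, -0.27, -0.42 and -0.13 in MuRF1 het MuRF2 null hearts. On double null arrays it was at -1.07, -0.46, -0.71 and -0.74, all of them lower, with a difference of -0.48 ± 0.11 (limma, adjusted p = 0.00588) that passed without each array in turn. The second Trim8 probe, above background on 8 arrays, differed by -0.10. Trim25, the ligase that activates RIG-I, was at -0.38, -0.58, -0.71 and -0.74 against -1.38, -0.66, -1.40 and -1.16, so that double null 2 lay inside the range of the other group. Its difference was -0.55 ± 0.15 (limma, adjusted p = 0.0162; -0.47, 0.0566 without MuRF1 het MuRF2 null 1), and its dimmer probe, above background on 8 arrays, differed by -0.02. Trim12a, a mouse relative of the Trim5 restriction factors, was at 1.23, 0.36, 0.47 and 0.97 against -0.15, -0.01, 0.30 and 0.07. It differed by -0.70 ± 0.20 (limma, adjusted p = 0.0168), and without MuRF1 het MuRF2 null 1 or 4 by -0.54 (0.0617) or -0.63 (0.0514). The second Trim12a probe, above background on 4 arrays, differed by -0.31. Trim12a has a near-identical neighbour, Trim12c, and the Trim30 genes are alike among themselves, so a probe may read more than 1 of them.

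Trim56, an antiviral ligase, differed by -0.39 ± 0.12 (limma, adjusted p = 0.0227), with double null 2 at 0.11 inside the range of -0.02 to 0.40 of the other group. It did not pass without double null 1 or 4 or MuRF1 het MuRF2 null 1 or 4 (-0.32 to -0.38, adjusted p up to 0.0797). Trim24 differed by -0.27 ± 0.09 (0.0358) and did not pass without any of 7 of the 8 arrays, double null 2 being the exception (-0.24 to -0.30, adjusted p up to 0.0895). Trim46, an axon-organising member, was at 0.13, 0.12, 0.09 and 0.17 in MuRF1 het MuRF2 null and at 0.63, 0.38, 0.22 and 0.69 in double null hearts, a difference of 0.35 ± 0.10 (limma, adjusted p = 0.0184). It did not pass without double null 1 (0.30, 0.052) or 4 (0.28, 0.0608). Trim2 was at -1.29, -1.33, -1.47 and -1.32 against -0.75, -0.27, -1.23 and -0.96, a difference of 0.55 ± 0.18 (limma, adjusted p = 0.039). Double null 2, the dimmest array, had the highest Trim2 value, and without it the difference was 0.37 (adjusted p = 0.109); Trim2 also did not pass without double null 1 or any 1 MuRF1 het MuRF2 null array (0.51 to 0.57, adjusted p up to 0.0892). With Cy5 brightness as a covariate Trim2 turned to -0.26. Trim32 was at 0.23 and did not pass (0.0508). With median centring no member was higher and 3 were lower (Trim25, Trim37 and Trim56), and with Cy5 brightness as a covariate only Trim16 and Trim25 passed. The count of 10 fell to 4 without MuRF1 het MuRF2 null 1 and to 6 without MuRF1 het MuRF2 null 2 or 4 or double null 4.

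On slide 4, which held only MuRF1 het MuRF2 null arrays, the reference channel itself differed. The median absolute difference in log2 Cy3 signal over the members was 0.0319 between double null and wild type arrays but 0.113 between double null and MuRF1 het MuRF2 null arrays (0.0447 and 0.112 over all genes). The labels name the same reference RNA on all arrays, and a difference in Cy3 enters the ratio. For Trim16 mean Cy3 was 7.60 to 7.63 in all genotypes. For Trim47 it was 8.73 to 8.74 in 3 genotypes and 8.93 on slide 4, for Trim8 8.27 to 8.30 and 8.40, for Trim56 6.75 to 6.79 and 6.53, and for Trim37 6.62 to 6.68 and 6.21. With the Cy5 channel alone, an alternative chosen after seeing the data, Trim47 (0.53, limma adjusted p = 0.0753), Trim56 (-0.12, 0.333) and Trim2 (0.35, 0.122) no longer passed. The other 7 did, among them Trim16 at 1.07, Trim8 at -0.58 and Trim25 at -0.66.

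**Figure D5:**
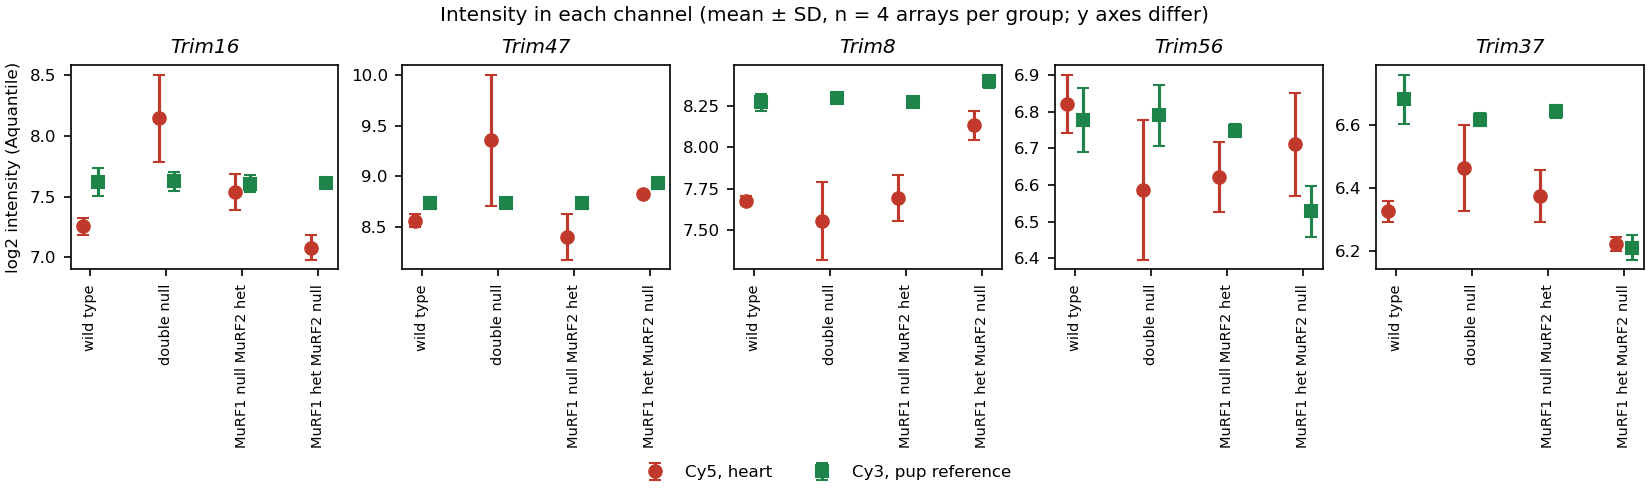
Mean normalised log2 intensity of the heart channel (Cy5) and of the reference channel (Cy3) on the vertical axis, by genotype on the horizontal axis, for Trim16, Trim47, Trim8, Trim56 and Trim37. The Cy3 mean of Trim16 stays between 7.60 and 7.63, while that of Trim37 is 6.21 on MuRF1 het MuRF2 null arrays and 6.62 to 6.68 on the others.

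The comparison of MuRF1 het MuRF2 null with wild type hearts asks what is altered with 1 MuRF1 allele left. Only Trim37, a ligase of peroxisomal protein import whose human counterpart is mutated in mulibrey nanism, passed among the members. That is 1 of 31 (3.23%), against 2.01% of all genes tested (0.672% higher, 1.34% lower), while 8 members (25.8%) had an unadjusted p under 0.05, against 16.2% of all genes. Trim37 was at 0.06, -0.04, -0.02 and 0.05 in MuRF1 het MuRF2 null and at -0.22, -0.34, -0.49 and -0.38 in wild type hearts, so the groups did not overlap. The ratio rose by 0.37 ± 0.08, or 1.29-fold (limma, adjusted p = 0.0297). Its Cy3 signal was lower by 0.47 on slide 4 and its Cy5 signal differed by -0.10, so the rise in the ratio was not seen in the heart channel. The second Trim37 probe, above background on 4 arrays, differed by -0.18, and the call was lost without any 1 array other than wild type 1 (0.32 to 0.39, adjusted p up to 0.0969).

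The remaining members in this comparison included Trim32 at -0.33 (limma, adjusted p = 0.0528), Trim8 at 0.33 (0.134), Trim46 at -0.25 (0.226), Trim12a at 0.37 (0.373) and Trim35 at 0.42 (0.306). Trim28 was at -0.23 (0.167), with no overlap between groups and a Cy3 difference of 0.45. Groups did not overlap for 7 members of 31, against 20.7% of all genes. With median centring 1 member, Trim37, rose and 7 fell, where 0.154% of all genes rose and 20.7% fell, and the median of all genes moved by -0.33. The macrophage marker Adgre1 (1 of 5) was lower by 0.62, and its part in the TRIM differences was not tested.

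The same question with 1 MuRF2 allele left compares MuRF1 null MuRF2 het arrays with the wild type arrays used above. No member passed in limma, against 1.01% of all genes, and 9 members (29%) had an unadjusted p under 0.05, against 23.2% of all genes. Trim16 was at -0.09, -0.17, -0.18 and 0.17, all above the wild type arrays, at a difference of 0.30 that did not pass (limma, adjusted p = 0.214). Trim12a was at -0.52 (0.146), Trim35 at 0.46 (0.182), Trim32 at -0.21 (0.17), Trim28 at -0.19 (0.185) and Trim47 at -0.16 (0.675). Groups did not overlap for 3 members, Trim16, Trim28 and Trim32, against 12.7% of all genes. The count was 3 without MuRF1 null MuRF2 het 2, and with median centring 18 members fell and none rose, where 59.7% of all genes fell, with a shift of -0.51 in the median over all genes. With array weights 3 members passed, where 2239 of 12348 genes did.

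Between double null and MuRF1 null MuRF2 het hearts, which differ in the last MuRF2 allele, no member passed in limma, against 0.348% of all genes, and 4 (12.9%) had an unadjusted p under 0.05, against 9.7% of all genes. With array weights 10 members passed, Trim16 and Trim47 among them, where 2852 of 12348 genes did. Trim16 was higher by 0.59 ± 0.14 (limma, adjusted p = 0.0989) and was the only member whose groups did not overlap, against 2.85% of all genes. Trim47 was higher by 0.95 ± 0.22 (0.083), with MuRF1 null MuRF2 het arrays at -0.08, -0.13, -0.60 and -0.54. Without the 2 dimmest arrays Trim16 and Trim47 passed, and 2 members passed without double null 1 or 2 and 1 without MuRF1 null MuRF2 het 1. Trim16 had a mean of 0.52 ± 0.33 (SD, n = 4) in double null and -0.07 ± 0.16 in MuRF1 null MuRF2 het hearts. It was at -0.36 ± 0.17 in wild type and at -0.54 ± 0.11 with 1 MuRF1 allele and no MuRF2. From high to low the order was double null, MuRF1 null MuRF2 het, wild type, MuRF1 het MuRF2 null. No neighbours in it passed against each other, and MuRF1 het MuRF2 null against wild type hearts gave -0.17 (limma, adjusted p = 0.614).

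Arrays of slide 2 (MuRF1 null MuRF2 het) and of slide 4 (MuRF1 het MuRF2 null) differed in 3 of 31 members (9.68%, 1 higher and 2 lower, against 8.54% of all genes, 4.6% higher and 3.94% lower), and groups did not overlap for 7 of 31, against 20.1% of all genes. Trim12a was lower in MuRF1 null MuRF2 het hearts, at -0.11, -0.49, -0.30 and 0.34 against 1.23, 0.36, 0.47 and 0.97, a difference of -0.90 ± 0.20 (limma, adjusted p = 0.0157). All 4 values were lower, with MuRF1 null MuRF2 het 4 just under the other group. The second Trim12a probe, above background on 4 of the 16 arrays, differed by -0.22. Trim12a was above background on 1 of 4 MuRF1 null MuRF2 het arrays and on all 4 of the other group, as was Trim37. It missed the threshold without MuRF1 null MuRF2 het 3 (-0.84, 0.0511) or MuRF1 het MuRF2 null 1 or 4 (-0.74 and -0.83, 0.0585 and 0.0526). Trim16 was higher by 0.47 ± 0.14 (0.0482) and lost the call without any 1 array other than MuRF1 null MuRF2 het 2 (0.39 to 0.52, adjusted p up to 0.112). Trim37 was lower by 0.28 ± 0.08 (0.0464), lost the call without each of the 8 arrays (-0.24 to -0.30, adjusted p up to 0.119), and turned to 0.15 in the Cy5 channel alone. The second Trim37 probe went the other way, at 0.22. Leaving out single arrays gave 0 calls without MuRF1 null MuRF2 het 3 or MuRF1 het MuRF2 null 1 or 4, and 1 without MuRF1 null MuRF2 het 1 or 4 or MuRF1 het MuRF2 null 2 or 3. With median centring only Trim37 passed, and it was lower. Of 5 endothelial markers Kdr and Tie1 were lower in MuRF1 null MuRF2 het hearts, with a summed level of 9.76 to 10.5 against 10.5 to 10.9. Of 6 cardiomyocyte markers Tnnt2 (0.66) and Tnni3 (0.65) were higher, though both were under 0 with median centring, and Ryr2 (-0.50) was lower. The macrophage marker Lyz2 (1 of 5) was higher by 0.98, and by 0.11 with median centring. Kdr was then at -1.23, Ryr2 at -0.29 and Tie1 at -0.13, where the median of all genes was -0.16. The part of these markers in the TRIM differences was not tested. In all 6 comparisons 14 members passed at least once and 17 never did.

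The 6 measured members with ISRE letters in their promoter were set beside the 17 measured members in the table without them, as a description. The letters were sought in the whole window, with the 50 bases after the start included. In double null against wild type hearts none of the 6 passed and 4 were below 0, with a median of -0.20, while among the 17 others 1 rose and 2 fell, with a median of -0.10. Over all genes 22.3% passed there. Against MuRF1 het MuRF2 null hearts, Trim2 was higher and Trim12a lower in double null hearts, and the medians were -0.20 and -0.02. In MuRF1 null MuRF2 het against wild type hearts 5 of the 6 were below 0 (median -0.16, and -0.09 for the others). When the same arrays were set against MuRF1 het MuRF2 null arrays 5 of 6 were again below 0, with medians of -0.14 with the letters and 0.01 without. Trim2 had the highest difference of the 6 when double null hearts were set against wild type or MuRF1 het MuRF2 null hearts. The lowest was that of Trim30d against wild type and of Trim12a against MuRF1 het MuRF2 null hearts.

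Genes that work with TRIM proteins were counted in double null against wild type hearts, where the median of all genes was 0.01 and 22.3% of all genes passed. Of 20 measured genes of RIG-I and interferon signalling (median -0.03), where Trim25 and Trim65 act, none rose and 2 fell. Mavs, the mitochondrial adaptor of the RNA sensors, fell by 1.00 ± 0.17 (limma, adjusted p = 0.00102) and the antiviral tether Bst2 by 0.40 ± 0.13 (0.0332). Of 13 NF-kB and TAK1 genes (median -0.09) 1 passed, the TAK1 partner Tab1, which fell by 0.63 ± 0.14 (limma, adjusted p = 0.00686). Of 10 partners of Trim28 in silencing (median -0.01), Atf7ip fell by 0.44 ± 0.12 (0.0151) and Hdac1 rose by 0.37 ± 0.12 (0.0364), though it was at -0.44 with median centring. Of 13 genes of SMAD signalling (median -0.01), where Trim33 acts, the receptor gene Tgfbr1 and the SMAD inhibitor Skil rose (0.28 and 0.27, adjusted p = 0.0131 and 0.0442), though both were under 0 with median centring, and Bmpr2 fell by 0.49 (0.0254). Of 12 membrane repair genes (median -0.06), which work with Trim72, itself not analysed here, Anxa1 rose by 0.61 (0.0168), though it was at -0.33 with median centring, and Anxa6 fell by 0.35 (0.0369). Of 7 measured genes built like TRIMs but named otherwise (median -0.15), Rnf207, a cardiac ligase, fell by 1.15 ± 0.27 (0.00927), Cmya5 by 1.05 ± 0.31 (0.0242) and Fsd2 by 0.90 ± 0.27 (0.0294). These counts depended on the scaling. With median centring, where 55.7% of all genes fell, 7 of the 20 interferon, 11 of the 13 NF-kB and TAK1, 6 of the 10 silencing, 8 of the 13 SMAD, 6 of the 12 membrane repair and 4 of the 7 TRIM-like genes fell, and none rose. With the authors' log ratio, where 11.7% of all genes fell and 5.85% rose, 2, 2, 1, 0, 0 and 1 fell in the same order, and none rose.

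In double null against MuRF1 het MuRF2 null hearts the median of all genes was 0.02 and 26.4% of all genes passed. The interferon genes had a median of -0.27, and 3 of 20 were lower and none higher, namely Ifit2 (-0.43, limma adjusted p = 0.00944), Irf9 (-0.34, 0.0314) and Oasl2 (-0.37, 0.0385). Of the 13 NF-kB and TAK1 genes (median -0.08), Tab1 (-0.49, 0.0207), Rela (-0.37, 0.0147) and Nfkbia (-0.53, 0.0453) were lower. Of the 10 Trim28 partners (median -0.04), Atf7ip (-0.80, 0.000362) and Chd4 (-0.54, 0.00479) were lower. Of 13 SMAD genes (median -0.02) 3 were higher and 2 lower, and of 7 TRIM-like genes (median -0.17) 2 were lower, Rnf207 and Cmya5. Of 12 membrane repair genes (median 0.10) Anxa1 and Anxa2 were higher, though Anxa2 was at -0.03 with median centring. With median centring, where 7.17% of all genes passed, no interferon, NF-kB and TAK1, SMAD or membrane repair gene passed, 1 silencing partner was higher and 2 were lower, and 1 TRIM-like gene was lower. With scaling between arrays 5 of the 20 interferon genes passed, all of them lower, where 28.7% of all genes passed and 13.5% were lower. With the authors' log ratio the count was also 5, all lower, where 20.5% of all genes passed and 13.6% were lower. Ifit2 was also higher in MuRF1 het MuRF2 null than in wild type hearts, by 0.52 ± 0.11 (limma, adjusted p = 0.0211). It was the only gene of these lists to pass there, where 2.01% of all genes did. With median centring 1 interferon, 2 NF-kB and TAK1, 3 silencing, 4 SMAD and 2 membrane repair genes fell there, where 20.7% of all genes fell. Of the interferon genes 1 also rose, where 0.154% of all genes did, and Ifit2 was at 0.34. With the authors' log ratio no gene of these lists passed there. In MuRF1 null MuRF2 het against wild type hearts, where 1.01% of all genes passed, no gene of these lists did. With scaling between arrays 1 interferon gene was lower there, where 0.802% of all genes were. With median centring, where 59.7% of all genes fell, 4 of the interferon, 11 of the NF-kB and TAK1, 7 of the silencing, 10 of the SMAD, 8 of the membrane repair and 4 of the TRIM-like genes fell. Between double null and MuRF1 null MuRF2 het hearts, where 0.348% of all genes passed, none of these genes did, nor with median centring, scaling between arrays or the authors' log ratio. Ifit2, Rela, Atf7ip and Chd4 were lower and Skil higher in MuRF1 null MuRF2 het hearts when set against MuRF1 het MuRF2 null hearts, where 8.54% of all genes passed, and with median centring these 5 did not pass.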

How the data were processed

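Hearts of 16 mice were measured on two-colour Agilent arrays, 4 per genotype. Per the labels, RNA was taken with a Qiagen All-Prep kit, 50 ng was amplified, and replicates are biological. The labelling protocol names only Cy3-CTP, and the channel entries (heart in Cy5) were followed. The deposited array files give spot intensity and background in both colours. They also hold a log10 ratio that the authors made in Feature Extraction (version 9.1.3.1, and 9.5.3.1 for MuRF1 het MuRF2 null, per the file headers). Other columns in the deposited files, such as background flags, were used as given. The deposited series matrix holds log2 ratios; per probe centring and its direction (Cy5 over Cy3) were read from the values. Between 66.6% and 68.1% of them (46.2% for double null 2) equalled the Feature Extraction log ratio minus the probe's median within 0.001, with correlations of 0.982 to 0.997 per array, and what the rest went through is unknown. Its column medians were -0.0279 to 0.0238.

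The spots were reprocessed in R 4.3.3 (limma 3.58.1, and data.table at version 1.17.8). Normexp with an offset of 50 removed background, arrays were normalised by loess with control and irregular spots at weight 0, and spots were averaged per probe. Of 43379 spots, 1639 were controls. Probes whose heart signal was marked as above background on 4 or more of the 16 arrays were kept, and the probe with the brightest heart signal stood for each gene. Accession, symbol and synonym in RefSeq (GRCm38.p6) named 22951, 6659 and 3109 probes, and 8455 kept the file's name. One model in limma, with a mean per genotype over all 16 arrays, gave 6 comparisons, with two-sided Benjamini-Hochberg adjusted p-values over all genes tested and a threshold of 0.05. The code was tested on simulated data. The number of arrays limits the precision.

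The members, the gene lists and the tests were chosen with earlier results of these data known. Members that passed in any comparison were named, together with representatives of each subfamily, the 5 highest and 5 lowest wild type ratios, and list genes that passed. Alternatives covered the deposited ratios, centring, background, filters, probes, weights, covariates, slides, single channels and leaving out arrays.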

Additional observations from a re-analysis of the deposited data

Results flagged for a closer look

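Among groups of 4 arrays, 4 of 104 pairs of a TRIM gene and a genotype (26 named genes) had 1 array whose gap to the nearest other, over the group's range, was above Dixon's 95% critical value for 4 samples. Chance gives about 1 in 20. Trim13 was at 0.39 on double null 3, against 0.14 to 0.18 on the other 3 arrays of that genotype. Trim21 was at 0.50 on MuRF1 het MuRF2 null 1, against 0.26 to 0.29. Trim27 was at -0.25 on wild type 3, against -0.03 to 0.01. Trim45 was at -0.31 on double null 2, the dimmest array, against 0.40 to 0.46. Without double null 3, Trim13 still passed between double null and wild type hearts.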

How the results depend on the processing

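Counts of TRIM genes that passed were 6, 0, 1, 0, 10 and 3 for double null against wild type, MuRF1 null MuRF2 het against wild type, MuRF1 het MuRF2 null against wild type, double null against MuRF1 null MuRF2 het, double null against MuRF1 het MuRF2 null, and MuRF1 null MuRF2 het against MuRF1 het MuRF2 null. In that order median centring gave 16, 18, 8, 0, 3 and 1 (median of all genes moved by -0.50, -0.51, -0.33, -0.01, -0.17 and -0.18), where 55.8%, 59.8%, 20.8%, 0%, 7.17% and 2.9% of all genes passed. Array weights gave 24, 3, 9, 10, 20 and 7, Cy5 brightness as a covariate 2, 0, 3, 1, 2 and 0, a filter for all 16 arrays (4 members tested) 2, 0, 0, 1, 4 and 0, and the replicate block 6, 0, 0, 0, 9 and 1. For these settings and the alternatives below, the share of all genes that passed is not given here. The counts alone thus do not set the members apart from other genes. With array weights many other genes passed too where MuRF1 null MuRF2 het arrays were set against wild type or double null arrays, as given above. No count over all genes is given for the other comparisons with array weights, including those with 24 and 20 members. Same-numbered arrays had correlations of -0.611 to 0.363 in their deviations, with 9 of 24 over 0.1, and correlated best with their own number in 3, 5, 1, 0, 0 and 1 of 8 cases, so the numbers were not taken as pairs, although same-numbered wild type and double null arrays share a slide. Leaving out single arrays gave 3 to 9, 0 to 3, 0 to 1, 0 to 2, 4 to 10 and 0 to 4. The authors' log ratio and their series matrix gave 0 for MuRF1 het MuRF2 null against wild type and 1 for double null against MuRF1 null MuRF2 het, and both gave 6 for double null against wild type, 3 of them the same genes. Without background subtraction the third count was 2 and the last 1, without a filter the third was 2, with scaling between arrays the fourth was 2, without the 2 dimmest arrays the fourth was 2, and in Cy5 alone the last was 7. Slide 1 alone gave 0 and slide 3 alone 6 for double null against wild type, 2 of them the same genes, and slide as a block gave 6. The median wild type ratio of -0.17 was -0.41 with median centring, -0.023 without a filter, -0.27 with the filter for all arrays and -0.21 to -0.11 without single arrays. Signs turned for Trim47 in double null against wild type hearts with median centring (-0.23), for Trim2 in double null against MuRF1 het MuRF2 null hearts with the covariate (-0.26), and for Trim37 in Cy5 alone (-0.10 against wild type and 0.15 between the last 2 genotypes). The cause was not tested. Over single genes and alternatives, 274 values kept direction and call, 146 kept direction and lost the call, and 4 reversed. Trim16 in double null against wild type hearts passed under 14 of 16 alternatives other than leaving out single arrays, from 0.11 to 1.39, and Trim47 under 13 of 16. Members above background on few double null arrays, such as Trim65 and Trim37, are limited by signal over background.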
